A study of Mus musculus with 6 samples.

Results

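The secretory pathway and its stress response were followed through 46 genes whose products carry new proteins into the endoplasmic reticulum (ER), fold them there, remove those that fail to fold, or sense the load. The members were taken by symbol from a list of ER translocation, folding, degradation and stress response genes, and the rule itself used no measured value. All 46 were among the 15861 genes of the count table. In a B cell this pathway handles the immunoglobulin chains and surface receptors, and it is known to expand when B cells become plasma cells. Its stress arm, the unfolded protein response, is started in the ER membrane by 3 sensors, IRE1 (gene Ern1), PERK (gene Eif2ak3) and ATF6. IRE1 splices the Xbp1 mRNA, PERK slows translation and favours the transcription factor ATF4, and ATF6 is cut in the Golgi to release a transcription factor.

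Polyadenylated RNA came from germinal centre B cells of mice, sorted as B220+, GL7+ and FAS+. The KO group was 3 mice that combined the C57BL/6 background, 1 Cgamma-cre allele (Cgamma-cre+/-) and the floxed gene (Lsd1 f/f). The WT group was 3 C57BL/6 mice with Lsd1 f/f and no Cre in their label. Mice of both groups are described as littermates and carried the floxed Lsd1 alleles, so the groups differ by the Cre allele and by what it deletes. No source used here gives the ages of the mice, the immunisation or the share of cells with a recombined allele, and Cre-positive mice without floxed alleles were not analysed here. The targeted gene appears in the count table under its current symbol, Kdm1a, and encodes an enzyme that removes methyl groups from histones.

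The libraries held 12325300 to 14327654 counts in KO and 3390805 to 5524852 in WT, so depth and genotype cannot be told apart. Kdm1a was read at 81.7, 33.0 and 21.8 CPM (counts relative to library size, scaled by the TMM method) in KO and at 134, 85.1 and 92.5 CPM in WT. Its log2 fold change was -1.19 (SE 0.50, edgeR adjusted p = 0.393), and -1.93 without KO 1 (edgeR adjusted p = 0.0169). The library labelled KO 1 thus lay next to the lowest WT library for the targeted gene, and values that move by over 1.5 times without it are given both ways for the genes it touches most. Of 10 germinal centre B cell markers, 9 passed the filter on low counts, Mef2b being the exception with at most 6 counts in a library. All 10 summed to 3673 to 4416 CPM of the library total in KO and 4638 to 4771 CPM in WT. Of the 9 tested markers, 8 had a log2 fold change below 0, with a median of -0.21. At an unadjusted p under 0.05, edgeR gave 2 lower in KO and 0 higher, or 22.2%, against 12.6% of all genes. None passed at an adjusted p under 0.05. The 8 T cell markers summed to 155 to 215 CPM in KO and 180 to 251 CPM in WT, most of it Lck, while Cd3d had at most 15 counts and Cd8a at most 1 in any library.

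Before the values, matches to known stress response elements in the promoters of some of these genes are shown. The ER stress response element (ERSE) is the known binding sequence of ATF6, and of XBP1, together with the factor NF-Y: CCAAT, then 9 bases of any kind, then CCACG. It was searched on both strands in windows of 250 bases before to 50 bases after each RefSeq gene start (build GRCm38.p6), which 39 of the 46 members had. Srp68, Sec61a1, Ssr2, Spcs3, Manf, Hyou1 and Atf6 had no window and were not searched. The ERSE was found in 7 of the 39 members (17.9%) and in 37 of 27025 genes with a window (0.137%). The matches are printed 5′ to 3′ with 6 flanking bases on each side, and capitals mark the CCAAT and CCACG parts.
Hspa5, chr2:34772019-34772049, plus strand: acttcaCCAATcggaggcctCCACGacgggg
Hsp90b1, chr10:86705527-86705557, plus strand: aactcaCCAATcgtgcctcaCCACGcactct
Hsp90b1, chr10:86705632-86705662, minus strand: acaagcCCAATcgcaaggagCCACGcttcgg
Pdia6, chr12:17266485-17266515, plus strand: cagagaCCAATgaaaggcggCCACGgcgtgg
Dnajc3, chr14:118937821-118937851, plus strand: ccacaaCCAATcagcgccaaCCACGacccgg
Creld2, chr15:88819514-88819544, minus strand: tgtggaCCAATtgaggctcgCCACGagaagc
Ero1lb, chr13:12565676-12565706, minus strand: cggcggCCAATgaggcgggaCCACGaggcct
Syvn1, chr19:6046526-6046556, plus strand: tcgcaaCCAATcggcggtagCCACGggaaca
Most of these matches lay between 44 and 126 bases before the RefSeq gene start. The exceptions were the minus-strand match of Hsp90b1 at 212 bases and that of Ero1lb at 201 bases. The gene coordinates given further below come from another annotation, GENCODE, by which the Hspa5 match lies inside the gene. A shorter relative, ERSE-II (ATTGG, 1 base of any kind, CCACG; both strands), was found in Dnajb11 and Herpud1, against 12 of the 27025 genes (0.0444%).
Dnajb11, chr16:22857846-22857868, plus strand: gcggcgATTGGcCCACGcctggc
Herpud1, chr8:94386371-94386393, plus strand: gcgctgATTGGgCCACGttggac
The core of the XBP1 element, TGACGTGG, was found in 1 member, Txndc5, and in 0.714% of the genes with a window. A match describes letters in these windows and is no evidence of binding. In log2 fold change (KO over WT) the median was 0.30 for the 7 members with an ERSE, 6 of them above 0, and 0.15 for the 32 others with a window, 20 of them above 0. Without KO 1 the medians were 0.17, with 5 of 7 above 0, and 0.05, with 18 of 32 above 0.

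The pathway was well expressed in both groups. Levels are compared between genes as TMM-scaled CPM per kb of exon. The highest means belonged to Hspa5, which encodes the main ER chaperone BiP, at 170 ± 41.6 in KO and 131 ± 12.4 in WT (SD, n = 3 each), and to Hsp90b1, the ER member of the HSP90 family, at 167 ± 93.2 in KO and 101 ± 40.9 in WT. In WT the order began instead with Atf4 (145 ± 13.0), the oxidoreductase gene P4hb (141 ± 19.6) and Txndc5 (136 ± 18.7), a thioredoxin-domain disulfide isomerase gene, and these neighbours differed by less than their SDs over libraries. Among the sensors, Eif2ak3 stood at 28.3 per kb in KO and 31.0 in WT, Atf6 at 12.3 in KO and 7.04 in WT, and Ern1 at 0.688 in KO and 0.343 in WT, the last place of the 46 in both groups. Fkbp11, a peptidyl-prolyl isomerase gene, was also near the foot of the order, at 1.13 per kb in KO and 0.716 in WT. Srp54a and Sec61g had low values too, 0.712 and 0.768 per kb in KO. Srp54a has near-identical copies in the mouse genome, and no source used here says how reads with several matches were counted, so its level is uncertain.

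**Figure D1:**
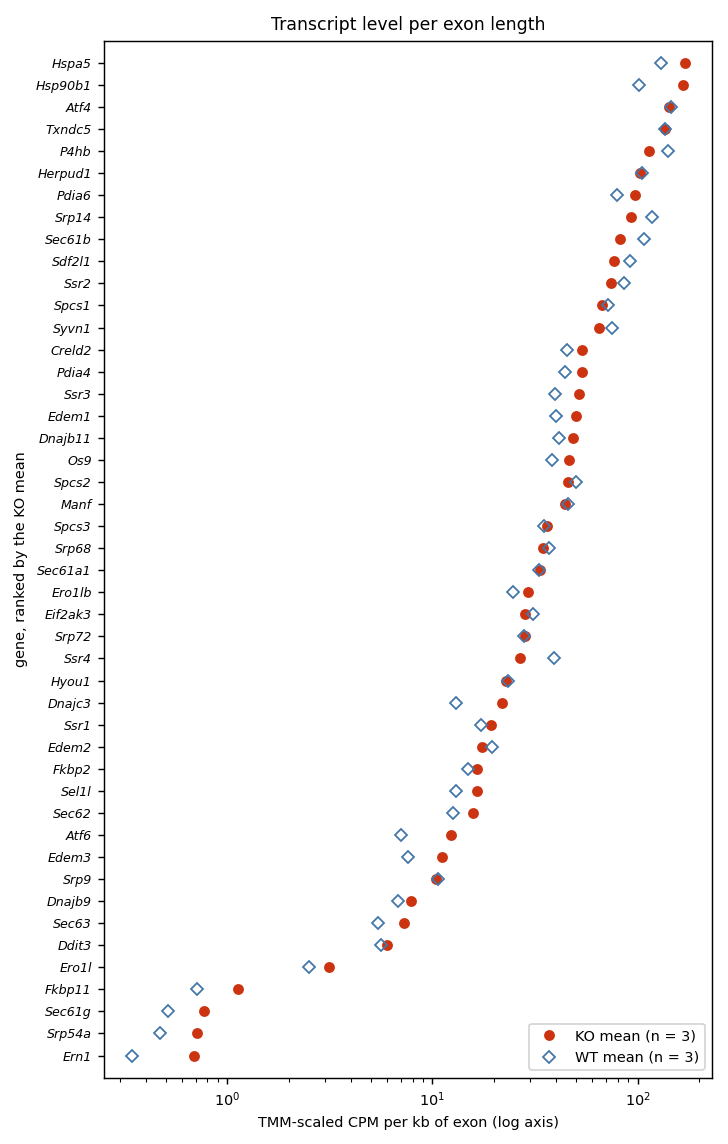
Mean TMM-scaled CPM per kb of exon (log axis) of the 46 genes, ranked by the KO mean, with filled circles for KO and open diamonds for WT (n = 3 libraries each). Hspa5 is the highest in KO at 170 per kb, and Ern1 the lowest in both groups at 0.688 in KO and 0.343 in WT.

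The comparison asks whether transcripts of this pathway differ in germinal centre B cells that carry the Cre allele and the floxed Lsd1 alleles. All 46 members passed the filter on low counts, and none passed the test over the 10926 genes tested (edgeR, adjusted p under 0.05), where 0.0824% of all genes did (0.0732% higher and 0.00915% lower in KO). The lowest adjusted p of a member was 0.203. No member passed by DESeq2 or by limma-voom either, which called 1.12% and 0.0183% of all genes. At an unadjusted p under 0.05, edgeR gave 3 members higher in KO (Atf6, Dnajc3 and Edem3) and 1 lower (Ssr4), or 8.7% of the members, against 12.6% of all genes (7.1% higher and 5.5% lower). Of the members, 4.35% had such a p without KO 1, 15.2% without KO 2 and 4.35% without KO 3, against 7.74%, 15.6% and 9.05% of all genes in those fits. The members' shares were 6.52% without WT 1, 15.2% without WT 2 and 6.52% without WT 3, against 12.9%, 22.1% and 5.08% of all genes. The members' share was thus below that of all genes with all libraries and in every one of these fits but the one without WT 3. The 2 members without KO 1 were Dnajc3 and Atf6. The KO and WT libraries did not overlap for 7 members (15.2%), 4 with KO above WT and 3 below, against 18% of all genes (10.1% above and 7.96% below). The median log2 fold change of the members was 0.15, with 29 of 46 above 0 and 17 below, against 0.01 over all genes, of which 48.7% were below 0. The members' median was 0.02 without KO 1, 0.08 without WT 1, 0.27 without WT 2 and 0.10 without WT 3. Above 0 were 24 of the 46 without KO 1, and 29 or 30 with any other single library left out. The median SE of a member was 0.23 on the log2 scale.

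**Figure D2:**
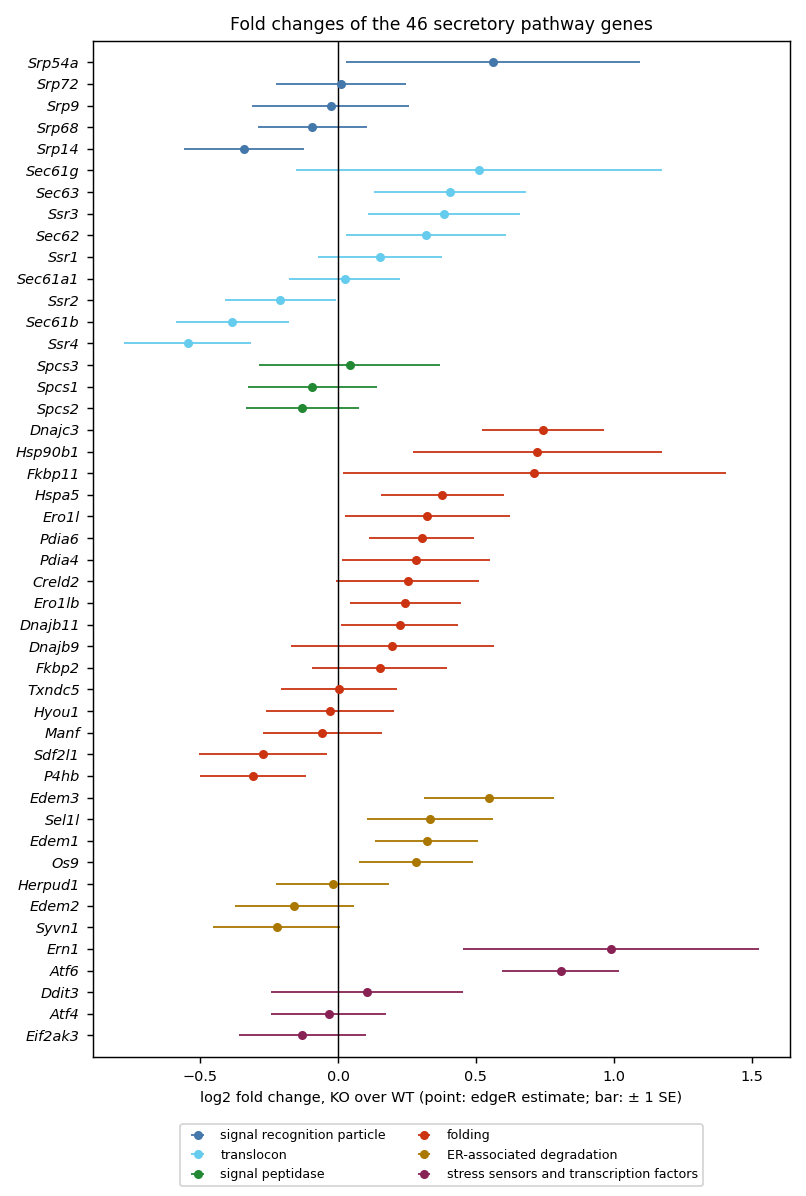
Log2 fold change of each of the 46 genes, KO over WT, with points for the edgeR estimate and bars for ± 1 SE, grouped and coloured by role. Values run from -0.55 for Ssr4 to 0.99 for Ern1, and the bars of many genes cross 0.

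Entry into the ER begins with the signal recognition particle (SRP), which binds the signal peptide as it leaves the ribosome. None of the 5 SRP genes passed, and their median log2 fold change was -0.03. Srp14, which encodes a subunit of the Alu domain, was read at 93.5, 137 and 104 CPM in KO libraries and at 126, 163 and 134 CPM in WT. The groups overlapped, since KO 2 lay above the 2 lower WT libraries, and the log2 fold change was -0.34 (SE 0.22, edgeR adjusted p = 0.539). Srp9, the partner of Srp14, was read at 49.6, 72.1 and 52.2 CPM in KO libraries and at 52.4, 84.4 and 39.6 CPM in WT. Srp68, a scaffold subunit, was nearly level, at 94.6, 95.3 and 93.8 CPM in KO and 120, 86.7 and 96.2 CPM in WT. For Srp72, which binds Srp68, the log2 fold change was 0.01 (SE 0.24). Srp54a, which encodes the subunit that holds the signal peptide, had 4.85, 4.16 and 2.36 CPM in KO and 2.36, 3.91 and 1.25 CPM in WT. Its 4 to 20 counts per WT library leave its log2 fold change of 0.56 with an SE of 0.53.

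The translocon passes the chain through the membrane, and its 9 genes lay on both sides of 0, with a median log2 fold change of 0.15 and no member past the test. Ssr4 (mm10 chrX:73787028-73790830, plus strand), which encodes the delta subunit of the translocon-associated TRAP complex, was read at 88.5, 85.7 and 74.6 CPM in KO libraries and at 88.6, 122 and 154 CPM in WT. All KO libraries lay below all WT libraries, but KO 1 and WT 1 were almost equal. Its log2 fold change was -0.55 (SE 0.23, edgeR adjusted p = 0.357), the lowest of the 46. Sec61b, which encodes the small beta subunit of the Sec61 channel, was read at 96.6, 127 and 89.6 CPM in KO libraries and at 133, 141 and 136 CPM in WT, again without overlap (log2 fold change -0.38, SE 0.21, edgeR adjusted p = 0.464). But its value was -0.03 after each library was corrected for the length and GC content of each gene's longest transcript. For Sec61a1, the pore-forming subunit gene, the value was 0.02 (SE 0.20). The channel's accessory genes Sec63 and Sec62 had values of 0.41 (SE 0.27) and 0.32 (SE 0.29). Sec63 was read at 74.8, 55.6 and 60.5 CPM in KO libraries and at 35.9, 69.5 and 38.0 CPM in WT, so WT 2 lay within the KO range. Ssr3, the gamma subunit of TRAP, was read at 230, 178 and 238 CPM in KO libraries and at 134, 242 and 118 CPM in WT, so WT 2 lay just above all KO libraries and the other WT libraries below them. For Ssr1 and Ssr2, the alpha and beta subunits, the values were 0.15 (SE 0.22) and -0.21 (SE 0.20). Sec61g, the gamma subunit of the channel, had only 2 to 11 counts per WT library and a value of 0.51 (SE 0.66).

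The signal peptidase cuts off the signal peptide, and its 3 accessory subunit genes all overlapped between the groups, with a median log2 fold change of -0.09. Spcs2 was read at 171, 206 and 203 CPM in KO libraries and at 190, 251 and 192 CPM in WT (log2 fold change -0.13, SE 0.20). Spcs1 was read at 97.2, 120 and 94.7 CPM in KO libraries and at 83.6, 144 and 105 CPM in WT. Spcs3 was read at 134, 104 and 140 CPM in KO libraries and at 77.9, 195 and 92.8 CPM in WT. WT 2 was the highest library for all 3 of these genes. Of the 1546 exon bases of Spcs1, 252 also lie in exons of Glt8d1 on the other strand, and no source used here says whether the counting used strand.

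Folding genes were mostly highest in 1 KO library. None of the 17 folding genes passed. With all libraries 13 had a log2 fold change above 0 and the median was 0.24, against 9 above 0 and a median of 0.09 without KO 1. Hspa5 (mm10 chr2:34771970-34777547, plus strand) was read at 918, 589 and 646 CPM in KO libraries and at 527, 613 and 518 CPM in WT. KO 1 was high, whereas KO 2 lay within the WT range, and the log2 fold change was 0.38 (SE 0.22, edgeR adjusted p = 0.501), or 0.16 without KO 1. Dnajc3 (mm10 chr14:118937976-118981697, plus strand) encodes P58IPK, a co-chaperone of BiP that also inhibits PERK. It was read at 138, 88.3 and 110 CPM in KO libraries and at 62.4, 75.2 and 62.9 CPM in WT, with every KO library above every WT library. Its log2 fold change was 0.74 (SE 0.22, edgeR adjusted p = 0.258). It was 0.56 without KO 1 and 0.40 after each library was corrected for transcript length and GC content.

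Hsp90b1 (mm10 chr10:86690209-86705509, minus strand), named after its values were seen, encodes GRP94, a chaperone of integrins and Toll-like receptors. It was read at 1103, 399 and 522 CPM in KO libraries and at 241, 571 and 415 CPM in WT. KO 2 and KO 3 lay within the WT range and KO 1 above every other library. The log2 fold change, 0.72 (SE 0.45, edgeR adjusted p = 0.548), was 0.17 without KO 1. The protein disulfide isomerase genes lay on both sides of 0. Pdia6 was read at 416, 333 and 347 CPM in KO libraries and at 312, 299 and 278 CPM in WT, with all KO libraries above (log2 fold change 0.30, SE 0.19, edgeR adjusted p = 0.533). P4hb was read at 315, 323 and 342 CPM in KO libraries and at 375, 369 and 469 CPM in WT, with all KO libraries below (log2 fold change -0.31, SE 0.19, edgeR adjusted p = 0.529). Pdia4 had a value of 0.28 (SE 0.27) and Txndc5 one of 0.00 (SE 0.21).

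Other folding genes had smaller or less certain values. The log2 fold changes of the BiP co-chaperone genes Dnajb11 and Dnajb9 were 0.22 (SE 0.21) and 0.20 (SE 0.37), and that of Hyou1, a nucleotide exchange factor of BiP, was -0.03 (SE 0.23). The oxidase genes Ero1l and Ero1lb, which pass oxidising equivalents to disulfide isomerases, had 0.32 (SE 0.30) and 0.24 (SE 0.20). Among small ER stress response genes, Creld2 had 0.25 (SE 0.26), Manf, which encodes a secreted BiP-binding factor, -0.06 (SE 0.22), and Sdf2l1 -0.27 (SE 0.23). The prolyl isomerase genes Fkbp2 and Fkbp11 had 0.15 (SE 0.24) and 0.71 (SE 0.69). Fkbp11 had 3 to 13 counts per WT library, and its value was 0.15 without KO 1 and 1.77 without WT 3.

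**Figure D3:**
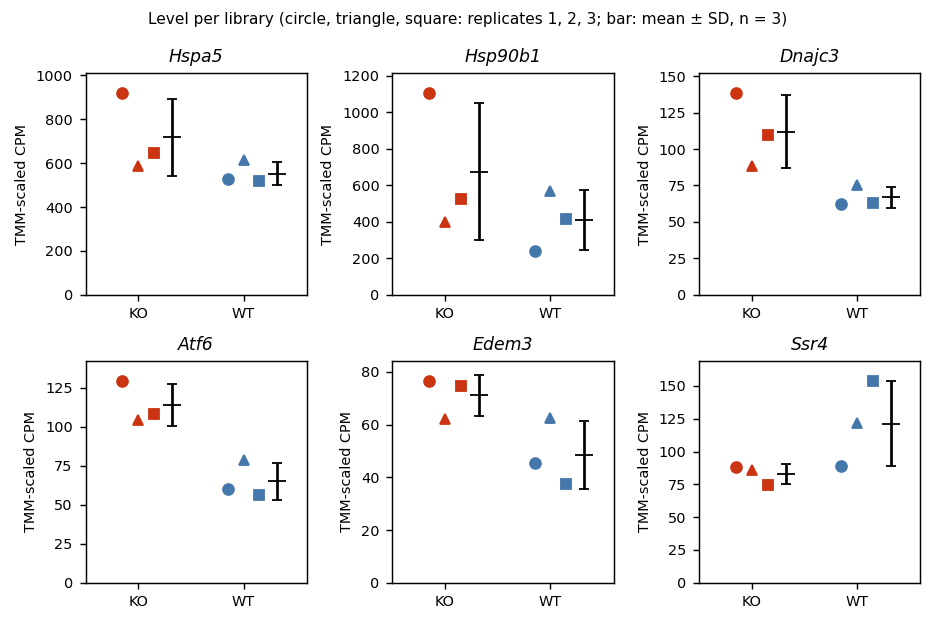
TMM-scaled CPM of 6 genes in each library, with KO in red left of WT in blue, circles, triangles and squares for replicates 1, 2 and 3, and bars for the mean ± SD (n = 3). KO 1 stands apart for Hsp90b1 at 1103 CPM and Hspa5 at 918 CPM, whereas for Atf6 and Dnajc3 all KO libraries lie above all WT libraries.

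ER-associated degradation returns misfolded proteins to the cytosol for the proteasome. None of its 7 genes passed, 4 were above 0 and the median log2 fold change was 0.28, or 0.02 with the length and GC correction and 0.18 without KO 3. The Edem genes encode mannosidase-like proteins that act on the sugars of misfolded glycoproteins, and they lay on both sides of 0. Edem3 (mm10 chr1:151755371-151822051, plus strand) was read at 76.4, 62.1 and 74.8 CPM in KO libraries and at 45.4, 62.7 and 37.4 CPM in WT. Only WT 2 reached the KO range, and the log2 fold change was 0.55 (SE 0.24, edgeR adjusted p = 0.366). After the length and GC correction it was 0.19. Edem1 was read at 307, 308 and 358 CPM in KO libraries and at 279, 261 and 239 CPM in WT, with no overlap (log2 fold change 0.32, SE 0.19, edgeR adjusted p = 0.501), but its value was -0.003 with that correction. Os9, a lectin gene, was read at 121, 114 and 131 CPM in KO libraries and at 123, 88.5 and 89.4 CPM in WT. Sel1l, which encodes the adaptor of the ubiquitin ligase HRD1, was read at 156, 99.9 and 166 CPM in KO libraries and at 117, 109 and 109 CPM in WT, so KO 2 lay below WT. The values were -0.22 (SE 0.23) for Syvn1, which encodes HRD1, -0.16 (SE 0.22) for Edem2 and -0.02 (SE 0.20) for Herpud1, an ER membrane component of the same ligase complex.

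Of the stress sensors, Atf6 had the lowest p of the 46 members, though it did not pass. Atf6 (mm10 chr1:170704674-170867771, minus strand) was read at 129, 104 and 108 CPM in KO libraries and at 60.3, 78.5 and 56.1 CPM in WT. Every KO library lay above every WT library, and the means were 114 ± 13.5 CPM in KO and 65.0 ± 11.9 CPM in WT (SD, n = 3 each). The log2 fold change was 0.81 (SE 0.21, edgeR adjusted p = 0.203). It was 0.70 without KO 1, with KO 2 and KO 3 still above every WT library, and 0.46 with the length and GC correction. Across the 17 alternatives it ran from 0.46 to 0.97 and the adjusted p from 0.0538 to 0.913, so it passed in none.

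Ern1 was read at 8.26, 2.19 and 6.42 CPM in KO libraries and at 2.10, 3.52 and 2.80 CPM in WT. KO 2 lay within the WT range, and the log2 fold change, 0.99 (SE 0.54, edgeR adjusted p = 0.466), was the highest of the 46, at 8 to 18 counts per WT library. It was 0.60 without KO 1. Eif2ak3 was read at 146, 195 and 171 CPM in KO libraries and at 237, 179 and 145 CPM in WT (log2 fold change -0.13, SE 0.23). The transcription factor genes downstream of PERK had estimates near 0, that of Ddit3 with a wide SE. Atf4 was read at 322, 409 and 274 CPM in KO libraries and at 378, 324 and 325 CPM in WT (log2 fold change -0.03, SE 0.21). Ddit3, which encodes the pro-apoptotic factor CHOP, was read at 11.5, 12.8 and 6.64 CPM in KO libraries and at 7.60, 10.5 and 10.6 CPM in WT (log2 fold change 0.11, SE 0.35). Across the 17 alternatives the Ddit3 value ran from -0.11 to 0.39, so a change in either direction is not excluded. Xbp1, which is no member of the list, was read at 337, 334 and 391 CPM in KO libraries and at 349, 291 and 398 CPM in WT (log2 fold change 0.03, SE 0.20). Gene counts do not separate the spliced from the unspliced Xbp1 mRNA, and ATF4 and ATF6 are controlled largely beyond their mRNA level.

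Further genes of the pathway, grouped in 6 lists, gave no gene past the edgeR test in either direction at an adjusted p under 0.05. At an unadjusted p under 0.05 they gave 1 higher in KO, Sec24d, and 2 lower, Asns and Trib3, which is 3.66% of the 82 tested, against 12.6% of all genes. Of 16 other unfolded protein response genes, 8 had a log2 fold change above 0 and the median was -0.03. Asns, the asparagine synthetase gene and a known ATF4 target, was read at 27.2, 42.9 and 25.0 CPM in KO libraries and at 57.7, 51.2 and 50.5 CPM in WT. All KO libraries lay below all WT libraries (log2 fold change -0.74, SE 0.25, edgeR adjusted p = 0.284). Trib3, a pseudokinase gene induced through ATF4 and CHOP, was read at 0.682, 3.53 and 0.999 CPM in KO libraries and at 6.56, 2.15 and 10.6 CPM in WT. KO 2 lay above WT 2 there, and the log2 fold change was -1.86 (SE 0.74, edgeR adjusted p = 0.349). Trib3 had only 9 to 50 counts per KO library and 11 to 34 per WT library. With each library left out in turn its value ran from -2.88 without KO 2 to -1.3 without WT 3. Chac1, also an ATF4 target, had a value of -0.76 (SE 0.58), at 8 to 17 counts per WT library. Further stress genes of this list went both ways. Atf3 at 0.78 (SE 0.59) and Sesn2 at 0.11 (SE 0.31), which ATF4 is known to act on, lay above 0. Atf3 was read at 2.12, 12.3 and 10.5 CPM in KO libraries and at 3.41, 4.69 and 6.54 CPM in WT. KO 1 was thus the lowest of all libraries for Atf3, and across the 17 alternatives its log2 fold change ran from 0.335 to 1.22. Ppp1r15a lay below 0 at -0.22 (SE 0.31). Atf3, Sesn2 and Ppp1r15a were named after their values were seen.

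Of 18 genes of COPII vesicles and ER to Golgi transport, 12 were above 0, with a median of 0.06. Sec24d, a cargo-binding subunit of the COPII coat, was read at 41.1, 15.9 and 29.3 CPM in KO libraries and at 16.8, 9.96 and 14.01 CPM in WT, so KO 2 lay just under WT 1. Its log2 fold change was 1.09 (SE 0.36, edgeR adjusted p = 0.284). Lman1, a cargo receptor gene, had a value of 0.53 (SE 0.25), and Kdelr1, a receptor that returns ER proteins from the Golgi, one of -0.34 (SE 0.22). Of the 14 other folding genes tested, 6 were above 0, with a median of -0.05. Ppib, a cyclophilin gene, had -0.43 (SE 0.20), Mzb1, a B cell co-chaperone of BiP and GRP94, -0.47 (SE 0.23), and Dnajc1, a membrane co-chaperone gene, 0.51 (SE 0.25). Of the 1215 exon bases of Mzb1, 695 also lie in exons of SPATA24 on the same strand, so its level is uncertain. For N-glycosylation 6 of 11 genes were above 0 (median 0.01), with Ost4 at -0.48 (SE 0.23), Ddost at -0.33 (SE 0.22) and the catalytic subunit gene Stt3b at 0.32 (SE 0.20). Of the 1272 exon bases of Ost4, 677 also lie in exons of Agbl5 on the other strand. For targeting and translocation 7 of 9 were above 0 (median 0.03), with Srprb at -0.31 (SE 0.20), Sec11c at 0.34 (SE 0.26) and Sec61a2 at 0.58 (SE 0.44). For other degradation genes 6 of 14 were above 0 (median -0.03), with Selenos at 0.28 (SE 0.20), Derl2 at -0.29 (SE 0.23) and Ube2g2 at -0.26 (SE 0.21).

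Within the KO group the libraries differed by role. KO 1 was the highest of all libraries for 13 of the 17 folding genes and for 19 of the 46 members (41.3%), against 20.1% of all genes tested. Of the folding genes, 15 were higher in KO 1 than in the mean of KO 2 and KO 3, with a median difference of 0.46 on the log2 scale, against 52% of all genes and a median of 0.02. The 14 genes of the other folding list did not show this, with mean log2 levels over WT of -0.015, -0.028 and 0.008 in KO 1, KO 2 and KO 3. Without KO 1 the log2 fold changes were -0.05 for Pdia4, -0.09 for Creld2, 0.09 for Dnajb11, 0.20 for Ero1l, 0.19 for Pdia6 and -0.53 for Sdf2l1. Outside the folding genes they were 0.18 for Sec62, 0.33 for Sec61g, 0.35 for Srp54a, -0.37 for Syvn1, 0.27 for Lman1 and 0.73 for Sec24d. The summed folding genes took 5178, 3122 and 3739 CPM of the library total in KO and 3115, 3150 and 3208 CPM in WT. KO 2 and WT libraries were thus alike in this sum, KO 3 somewhat above them and KO 1 far above. In the SRP, translocon and signal peptidase groups WT 2 was the highest library for 3 genes each, and over all members for 9 (19.6%), against 20.1% of all genes.

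**Figure D4:**
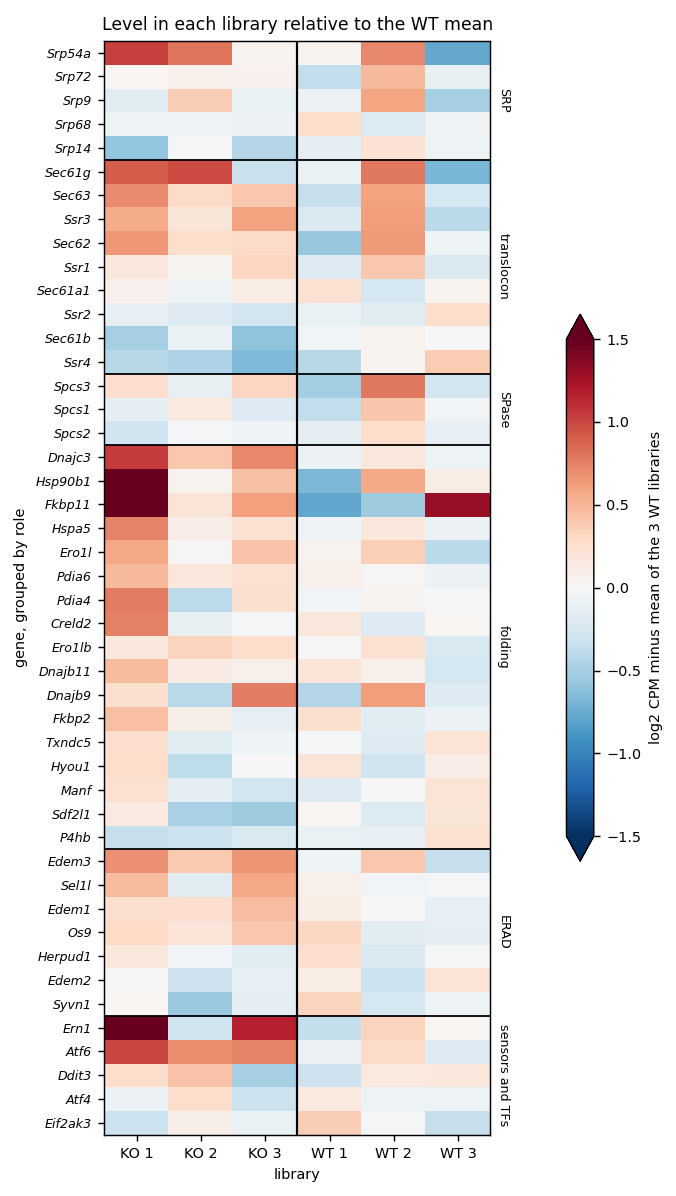
Log2 CPM of each gene in each library minus the mean of the 3 WT libraries, with KO libraries left of WT libraries and genes grouped by role (red above, blue below the WT mean; colours saturate at 1.5). The folding block is reddest in KO 1, and WT 2 is red in much of the SRP, translocon and signal peptidase blocks.

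Plasma cell markers did not follow 1 order over the KO libraries. Of 12 plasma cell markers, 11 were tested and 8 had a log2 fold change above 0 (median 0.20, range -0.47 to 2.30). None passed, with a lowest edgeR adjusted p of 0.213. At an unadjusted p under 0.05, edgeR gave 4 higher in KO and 0 lower, or 36.4%, against 12.6% of all genes. All KO libraries lay above all WT libraries for 3 markers and below for 0, or 27.3% without overlap, against 18% of all genes. The markers' mean log2 level over WT was 0.64 in KO 1, 0.08 in KO 2 and 0.56 in KO 3, and -0.01, 0.08 and -0.07 in WT 1, WT 2 and WT 3. Their median was highest in KO 3, at 0.22 in KO 1, 0.19 in KO 2 and 0.41 in KO 3, and lay between 0.02 and 0.05 in WT. Folding genes averaged 0.55, -0.05 and 0.16 in the same KO libraries and -0.09, 0.03 and 0.05 in the WT libraries. Prdm1, the gene of the plasma cell regulator BLIMP-1, was read at 26.8, 3.17 and 14.3 CPM in KO libraries and at 4.20, 3.12 and 1.56 CPM in WT, highest in KO 1. Irf4, which encodes another regulator of plasma cells, was read at 104, 49.3 and 85.4 CPM in KO libraries and at 46.7, 30.5 and 34.3 CPM in WT, without overlap. The surface marker gene Sdc1 was read at 8.41, 3.31 and 6.85 CPM in KO libraries and at 7.34, 5.08 and 7.47 CPM in WT, and Tnfrsf17 at no more than 1.52 CPM in any library. Jchain, the joining chain gene, was read at 1297, 1699 and 1874 CPM in KO libraries and at 998, 2134 and 1325 CPM in WT. The summed plasma cell markers, in CPM of the library total, were 2975, 3374 and 3741 CPM in KO and 2535, 3689 and 3159 CPM in WT, so KO 1 was the lowest KO library in this sum. Most of the sum was Jchain, Mzb1 and Xbp1, so it says little of the weaker markers. Xbp1, Mzb1 and Derl3 also belong to the other pathway lists, so these marker values are not independent of the pathway. The part of plasma cells in the folding gene values was not tested, and in bulk RNA a change in the number of such cells and a change in RNA per cell cannot be told apart. Germinal centre B cell markers averaged -0.45, -0.06 and -0.21 in KO and -0.18, 0.19 and -0.004 in WT, lowest in KO 1. Macrophage markers summed to 675, 715 and 3806 CPM in KO and to 947, 1742 and 3380 CPM in WT, an order that the folding genes did not share.

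**Figure D5:**
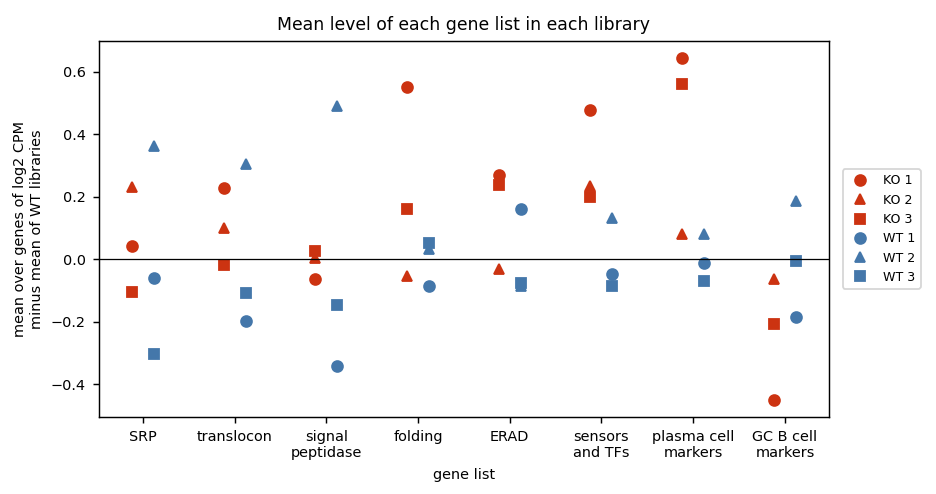
Mean over the genes of each list of log2 CPM minus the mean of the WT libraries, with KO libraries in red left of WT libraries in blue and a symbol for each replicate number. In the folding list KO 1 stands at 0.55 and KO 2 at -0.05, and among plasma cell markers KO 1 and KO 3 stand at 0.64 and 0.56.

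Exon length moved with the fold changes, in the pathway as in all genes. The 23 members with fewer than 3888.5 exon bases, the median of the 46, had 11 log2 fold changes above 0 and a median of -0.02, and the 23 longer members had 18 above 0 and a median of 0.32. All tested genes on the same sides of that length had medians of -0.13 and 0.11. With the correction, which used the length and GC content of the longest transcript rather than all exon bases, the medians were 0.10 for the shorter and 0.09 for the longer members. Single members moved both ways: the corrected log2 fold changes were 0.17 for Hspa5, 0.02 for Sel1l, 0.09 for Sec63, 0.12 for Sec62, 0.23 for Ssr3, 0.02 for Ero1l, 0.50 for Os9 and 0.53 for Creld2. Atf6, with 9231 exon bases, and Dnajc3, with 5141, are among the longer members, and Ssr4, with 3096, and Sec61b, with 1271, among the shorter.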

How the data were processed

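The submitters' processing notes name build mm10 and, with no order, the tools featureCounts 1.5.2, STAR 2.5.2 and CASAVA. The authors deposited raw read counts per gene symbol, 1 column per mouse. No source used here gives the annotation, strand setting or treatment of multiply matching reads. Libraries of a group differed beyond sampling noise (chi-square per degree of freedom 14.4 to 50.9).

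The main test was edgeR 4.0.16's quasi-likelihood test, run under R 4.3.3 on the deposited counts (filterByExpr, TMM, robust glmQLFit and glmQLFTest, two-sided, Benjamini-Hochberg adjustment over 10926 genes, threshold 0.05). SEs are those implied by the F statistic. Each mouse is 1 replicate. One more read moved a gene by 0.0698 to 0.0811 CPM in KO libraries and by 0.181 to 0.295 CPM in WT libraries. List means used log2 CPM with a prior count of 2. Marker and list sums used library totals. Lengths, coordinates and exon overlaps came from GENCODE vM21 (mm10), where all 46 members matched, and promoter windows from RefSeq. DESeq2 1.42.0, limma-voom 3.58.1, other scalings, filters, thinning, a trend in longest transcript length and GC, a replicate block and each library left out were alternatives.

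Members and lists were chosen with earlier results of these data known. Genes given with the value of every library were the sensors, Hspa5, Xbp1, Kdm1a and the 4 members of each role with the lowest p. Up to 3 genes of each other list were named by the lowest p. Of these, Asns, Trib3 and Sec24d have library values and the rest a log2 fold change and SE. Library values of Hsp90b1, Atf3, Prdm1, Irf4, Sdc1 and Jchain were given outside this rule. Exons of 16 members overlap those of another gene.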

Additional observations from a re-analysis of the deposited data

How the results depend on the processing

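No member passed the adjusted threshold in any of the 17 alternatives, among them DESeq2, limma-voom and each library left out. The members' median log2 fold change ran from 0.02 to 0.27 when a library was left out, and was 0.08 with the stricter filter (at least 5 CPM in at least 3 libraries, which 42 members passed) and 0.09 with the length and GC trend removed. With library totals alone it was 0.27, but that scaling moved the median of all genes to 0.13. For counts of calls over all genes, edgeR gave 9, DESeq2 122, limma-voom 2, quality weights 18, library totals alone 18, the replicate block 21, the length and GC correction 30, no filter 93, and the fits without a library 1 to 24.

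The labels' replicate numbers did not clearly pair the samples. Deviations of same-numbered libraries correlated at 0.341, -0.052 and 0.443 over the tested genes, and KO 2 correlated best with WT 1. With the replicate block no member passed and the members' median was 0.17.

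Of 66 single genes followed, 42 kept their sign in all alternatives they were tested in. Kdm1a passed without KO 1. The cause of the sign changes that follow was not tested. 
By DESeq2, log2 fold changes were Xbp1 -0.0058, Srp72 -0.026, Sec61a1 -0.013 and Txndc5 -0.039. With DESeq2 size factors in edgeR, log2 fold changes were Xbp1 -0.0062, Srp72 -0.026, Sec61a1 -0.014 and Txndc5 -0.039. With the length and GC trend removed, log2 fold changes were Atf4 0.19, Srp68 0.0701, Spcs3 -0.10, Edem1 -0.00296, Srp72 -0.17, Ssr1 -0.24, Ssr2 0.10, Manf 0.0053, Sdf2l1 0.079, Ero1lb -0.023 and Herpud1 0.13. With library totals alone, log2 fold changes were Atf4 0.074, Srp68 0.019, Srp9 0.091, Spcs1 0.029, Manf 0.067, Hyou1 0.091 and Herpud1 0.092. By limma-voom, log2 fold changes were Txndc5 -0.00067. With quality weights, log2 fold changes were Eif2ak3 0.033, Ddit3 -0.11, Xbp1 -0.054, Srp9 0.26 and Txndc5 -0.12. With no filter, log2 fold changes were Txndc5 -0.00096. With the replicate block, log2 fold changes were Srp9 0.025. After thinning to equal depth, log2 fold changes were Atf4 0.0086, Srp72 -0.015, Sec61a1 -0.027 and Txndc5 -0.034. With upper-quartile scaling, log2 fold changes were Srp9 0.0026. With each library left out in turn, the ranges were Srp9 -0.24 to 0.33, Spcs3 -0.20 to 0.56, Sec61a1 -0.10 to 0.12, Pdia4 -0.049 to 0.54, Creld2 -0.0905 to 0.41, Txndc5 -0.14 to 0.11, Fkbp2 -0.0305 to 0.26, Ddit3 -0.078 to 0.32, Hyou1 -0.21 to 0.13, Herpud1 -0.13 to 0.10, Atf4 -0.20 to 0.075, Xbp1 -0.078 to 0.14, Srp72 -0.17 to 0.29, Dnajb9 -0.15 to 0.60, Manf -0.23 to 0.043, Eif2ak3 -0.29 to 0.065, Srp68 -0.19 to 0.0298, Spcs2 -0.21 to 0.013 and Spcs1 -0.27 to 0.14.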
